A study of Homo sapiens with 6 samples.

Results

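The 42 genes described here are a named list of glycolytic enzymes, glucose and lactate transporters, and components and target genes of the hypoxia-inducible factors (HIF). They were taken by name, not by how they behaved in these libraries, although results of the same libraries were known when the list was drawn up. All 42 matched a single gene each among the 58336 in the tables. The libraries come from clones of KGN, which derives from a human ovarian granulosa cell tumour in which the transcription factor FOXL2 carries the C134W protein change on 1 of its copies. The study asked how the transcriptome differs with and without that change.

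Clones 44a and 4.72 have the genotype FOXL2 WT/WT, reached by CRISPR/Cas9 reversion of the mutation. Clones 3.11 and 44b have the genotype FOXL2 WT/C134W, and their labels name no editing step, so genotype and editing cannot be told apart. The remaining library of each genotype has a title that joins the names of both clones, 4.72-44a and 3.11-44b. These joined libraries were kept out of the tests and are shown as values. All cells were KGN grown in serum-containing medium, with RNA taken 30 h after a transfection whose content the labels leave out. No hypoxic treatment is named. Clones 44a and 44b share a name stem across the genotypes, which leaves 4.72 and 3.11 as the other pair. What the shared stem stands for is not stated. Each group therefore holds 2 clones, and the labels do not say whether libraries came from separate cultures, so p-values measure only the spread between these libraries.

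Totals ran from 35332727 to 46613068 expected counts per library. By these totals alone, 3 counts equal 0.0644 to 0.0849 CPM (counts put on a shared library size). Of the 14 granulosa markers examined, 7 or 8 reached 1 TPM (a level per transcript length) in each library, while AMHR2, FSHR, GATA4 and WT1 had 0 counts in all 6. INHA and CYP19A1 stayed below 1 TPM. Summed TPM of the red cell, leukocyte and endothelial marker lists was at most 1.9 in any library, and CD3E, LYZ and CDH5 had 0 counts.

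Glycolysis splits glucose into pyruvate in the cytosol, and lactate dehydrogenase turns pyruvate into lactate, which leaves the cell through monocarboxylate transporters. HIF is a pair of an oxygen-labile alpha subunit and a stable partner. With oxygen present, prolyl hydroxylases mark the alpha subunit for destruction, and without it HIF binds a short core motif and raises transcription of glycolytic genes, carbonic anhydrases, VEGFA and others. Granulosa cells feed lactate and pyruvate to the oocyte, and VEGFA drives vessel growth around the ovulating follicle.

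The HIF core motif is ACGTG or GCGTG on either strand. In RefSeq promoter windows (GRCh38.p14), it was found within the 250 bases before the transcription start in 39 of the 64 windows of the 36 members with an entry, or 60.9%, against 43.2% of all 35116 windows. The form ACGTG alone was in 37.5% of the members' windows and in 18.5% of all windows. The palindrome CACGTG, which contains ACGTG on both strands and so is counted among those matches, was in 12.5% against 6.34%. At least 1 window held a core in 30 of the 36 members. SLC2A1, P4HA2, PGAM1, LDHB, EGLN3 and PKM had none in these windows, which says only that those letters are not there. A match is a description of the sequence and not a measured binding site. VEGFA, HILPDA, SLC16A1, SLC2A3, BNIP3L and NDRG1 had no entry among these windows, so their promoters were not searched. The 6 sites below belong to members that were lower in 44a and 44b than in 4.72 and 3.11. Each shows the core nearest the start with 10 bases on each side, read 5′ to 3′ on the strand of the gene, and the core is in capitals. CACGT and CACGC are ACGTG and GCGTG read from the opposite strand. The sites lie at chr11:10304962-10304986 (plus strand, ADM), chr10:131982013-131982037 (minus, BNIP3), chr2:172556072-172556096 (plus, PDK1), chr17:82234867-82234891 (plus, SLC16A3), chr9:35673900-35673924 (plus, CA9) and chr15:63382066-63382090 (minus, CA12).
ADM: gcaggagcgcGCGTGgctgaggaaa
BNIP3: cgcccctgcgCACGCgcaggcccca
PDK1: ccacgtccctCACGTaccactcggc
SLC16A3: tcgtgggtggGCGTGgagcttgcac
CA9: gtttccaatgCACGTacagcccgta
CA12: ggatctcaccCACGCctgccagcag

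Of the 42 members, 39 had enough counts to be tested. The other 3 are ALDOC, a brain-type aldolase at 0.174 to 0.911 CPM, PDK3, a pyruvate dehydrogenase kinase at 0.0962 to 1.53 CPM, and EGLN3, a HIF prolyl hydroxylase. EGLN3 had 0 counts in every library, which at 3 counts allows up to 0.0644 to 0.0849 CPM by library totals alone and covers counting error only. Per transcript length, GAPDH was the most abundant member in every library at 5039 to 6708 TPM. Below it came LDHA at 2043 to 3442 TPM, PKM at 2272 to 3151 TPM and ENO1 at 1244 to 2134 TPM. These 4 enzymes stood far above the regulated HIF targets, such as VEGFA at 69.9 to 259 TPM and CA9 at 0.8 to 33.4 TPM. HIF1A, the ubiquitous HIF alpha subunit, lay at 788 to 1286 TPM, against 6.98 to 17.0 TPM for EPAS1, the alternative alpha subunit.

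Between the genotypes, the list as a whole showed no common direction, although some roles leaned upward. Of the 39, 23 were higher and 16 lower in WT/C134W, beside 50.6% and 49.4% of all genes. Their median log2 fold change, with WT/C134W set against WT/WT, was 0.106 beside 0.005 over all 16416 genes tested. That median was 0.443 without 4.72 and -0.055 without 44a, so its sign rested on single clones. By role, 5 of 6 enzymes from triose phosphate to pyruvate were higher in WT/C134W (median 0.273). So were all 3 tested genes of lactate dehydrogenase and the pyruvate dehydrogenase kinases (median 0.391). Neither role held a gene without overlap between the genotypes. In the 6 enzymes, LDHA and PDK1, 44a was the lowest clone and the mutant clone 44b lay below the WT/WT clone 4.72. In the other roles 4 of 10 genes from glucose to triose phosphate were higher (median -0.051), 8 of 13 other HIF targets, 2 of 4 transporters and 1 of 3 HIF subunits and oxygen sensors. No member passed edgeR's quasi-likelihood test after Benjamini-Hochberg adjustment, and no gene of the transcriptome did (0% called). At an unadjusted p under 0.05 there were 1242 genes, 7.57% of those tested with 2.87% higher and 4.7% lower in the mutant clones. SLC2A1 was the 1 member among them, on the lower side. DESeq2 called 283 genes and limma voom 0, none a member. Without a low-count filter edgeR estimated infinite prior degrees of freedom and called 664 of 24313 genes (2.73%), with SLC2A1 (adjusted p = 0.0103), NDRG1 and CA12 among them. Both WT/C134W clones lay above both WT/WT clones for 2 members and below them for 3, while 19.6% and 19.9% of all genes did so. All 5 also kept that sign between the joined libraries, which held for 14.9% of all genes upward and 16.5% downward. With the clones matched by name stem, 18 members were higher in both mutant clones and 8 lower in both, against 27.9% and 27.7% of all genes. A fold of at least 1.5 was reached by 2 members upward and 2 downward, against 13.4% and 13% of all genes. Upward these were CA12 (2.66-fold) and NDRG1 (1.78-fold), and downward SLC2A1 (1.71-fold) and ADM (1.58-fold). Summed TPM of the fibroblast and stromal markers also moved with genotype. It was 17428 and 19613 in 44a and 4.72 against 8735 in 3.11 and 8443 in 44b. Of these markers COL1A1, COL1A2, PDGFRB and ACTA2 were lower in both WT/C134W clones than in both WT/WT clones. DCN, LUM, PDGFRA and THY1 overlapped between the genotypes, with PDGFRA highest in 3.11 at 21.8 TPM. Totals of the single clones were higher in WT/WT. The part of these markers and totals in the genotype values was not tested.

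SLC2A1 (ENSG00000117394, chromosome 1, 42925375 to 42959176, minus strand) encodes GLUT1, the basal glucose transporter. The WT/WT clones 44a and 4.72 held 87.2 and 155.4 CPM and the WT/C134W clones 3.11 and 44b held 74.0 and 67.5 CPM, with 123.0 and 74.8 CPM in the joined WT/WT and WT/C134W libraries. All 3 WT/C134W libraries were below all 3 WT/WT libraries, a layout that 14% of all genes had (11.8% had the reverse), but 44a lay much nearer to the mutant clones than to 4.72. The fitted level was 1.71-fold lower in WT/C134W (log2 fold change -0.77 ± 0.28 SE, edgeR's quasi-likelihood test, unadjusted p = 0.0372, Benjamini-Hochberg adjusted p = 0.654), and the log2 value was -0.31 without 4.72. P4HA2 (ENSG00000072682, chromosome 5, 132191838 to 132295315, minus strand), a collagen prolyl hydroxylase subunit, was at 121.2 and 84.3 CPM in 44a and 4.72, and at 76.0 and 79.1 CPM in 3.11 and 44b. Here 44a alone was high, and 4.72 lay close to the mutant clones (log2 fold change -0.40 ± 0.21, adjusted p = 0.735 by the same edgeR test). Without 44a the log2 value of P4HA2 was -0.12, and without 4.72 it was -0.65. EPAS1 (ENSG00000116016, chromosome 2, 46293667 to 46386703, plus strand) was at 26.6 and 28.9 CPM in 44a and 4.72 against 23.9 and 21.1 CPM in 3.11 and 44b. The gap between its groups was 1.23-fold with an adjusted p of 0.763 in the edgeR test.

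ERO1A (ENSG00000197930, chromosome 14, 52639916 to 52695900, minus strand), an oxidase of the endoplasmic reticulum that serves disulfide formation, leaned the other way. It stood at 65.6 and 56.6 CPM in 44a and 4.72, and at 110.3 and 70.5 CPM in 3.11 and 44b, so the groups did not overlap but 3.11 made most of the difference. The log2 fold change was 0.57 ± 0.25 with an adjusted p of 0.684 in the edgeR test, and 0.21 without 3.11. SLC16A1 (ENSG00000155380, chromosome 1, 112911847 to 112957013, minus strand) encodes MCT1, a lactate and pyruvate carrier. It was at 56.6 and 59.1 CPM in 44a and 4.72 and at 68.0 and 71.8 CPM in 3.11 and 44b, with close values inside each genotype. The 1.21-fold difference had an adjusted p of 0.733 in the edgeR test. A gene on the other strand, SLC16A1-AS1, held counts equal to 10.9% of those of SLC16A1, and whether strand was used in counting is not stated.

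Between the clone pairs, most of the list lay on 1 side. In 44a and 44b, 36 of the 39 members were lower than in 4.72 and 3.11, beside 51.4% of all genes, and 3 were higher, beside 48.6%. The median log2 fold change (44a and 44b over 4.72 and 3.11) was -0.383 beside -0.011 for all genes tested. The middle 50% of the members ran from -0.582 to -0.302, and that of all genes from -0.25 to 0.223. Both 44a and 44b lay below both 4.72 and 3.11 for 31 of 39 members, against 15.4% of all genes. Only LDHB lay above in both, where 15.2% of all genes did. These layouts are in CPM, and fewer members kept them by TPM. By TPM, 44b lay above 4.72 in SLC2A3, PFKP, PGAM1, ENO1, ENO2, PKM and HILPDA, and above 3.11 in HK2. LDHB overlapped by TPM too, with 44a below 3.11. The distribution of fold changes shows the members shifted to the left as a block between the clone pairs and spread around the midpoint between the genotypes. Both comparisons use the same 4 libraries and are not independent of each other. In bulk RNA, fewer cells of a type and less RNA per cell cannot be told apart.

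**Figure D1:**
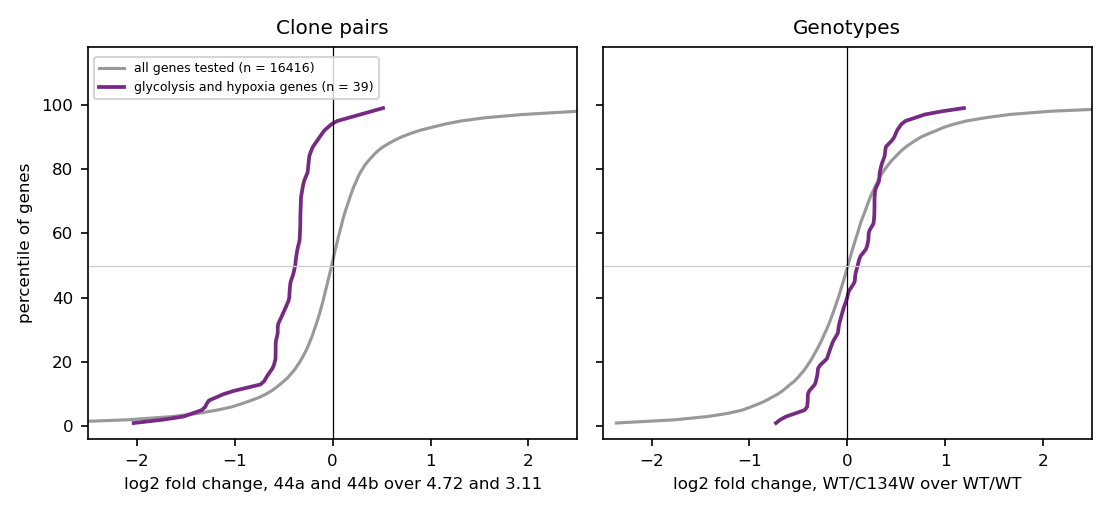
Cumulative distribution (percentile of genes, vertical axis) of edgeR log2 fold changes (horizontal axis) for the 39 tested glycolysis and hypoxia genes and all 16416 tested genes, between clone pairs on the left and genotypes on the right. The members' curve crosses the 50th percentile at -0.383 on the left and at 0.106 on the right.

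No single member passed the test between the clone pairs. Across the transcriptome 1 gene did (0.00609% called, edgeR's quasi-likelihood test, Benjamini-Hochberg adjusted p = 0.0477), and the smallest adjusted p of any member was 0.865. At an unadjusted p under 0.05 there were 7 members, GPI, PDK1, BNIP3, BNIP3L, NDRG1, ADM and VEGFA, all lower in 44a and 44b. Of all genes 4.47% had such a p, made up of 2.05% lower and 2.42% higher. DESeq2 called 207 genes and limma voom 0, again without a member. Without a low-count filter, again with infinite prior degrees of freedom, edgeR called 448 of 24313 genes (1.84%), with VEGFA (adjusted p = 0.000265), ADM, NDRG1, CA9 and CA12 among them. A fold of at least 1.5 was reached downward by 8 members (11.9% of all genes) and upward by 1 (11.8%).

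The same lean was present inside each genotype, as a description of the same 4 libraries and not as a further test. For members whose levels in 44a and 44b lay below both other clones, it follows from that layout. Clone 44a was below 4.72 for 36 of the 39 members, with a median difference in log2 CPM of -0.505, and clone 44b was below 3.11 for 34, with a median of -0.353. Over all genes those medians were -0.027 and 0.019. For 33 members both held, against 25.8% of all genes, and for 2 the reverse held, against 24.5%. Clone 44a was the lowest of the 4 single clones for 26 members (27.9% of all genes) and 44b for 9 (18.9% of all genes), the latter a share near the background. The highest was 3.11 for 18 members (29.7% of all genes) and 4.72 for 17 (25% of all genes). The median between the pairs stayed between -0.497 and -0.335 when each clone was left out in turn.

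**Figure D2:**
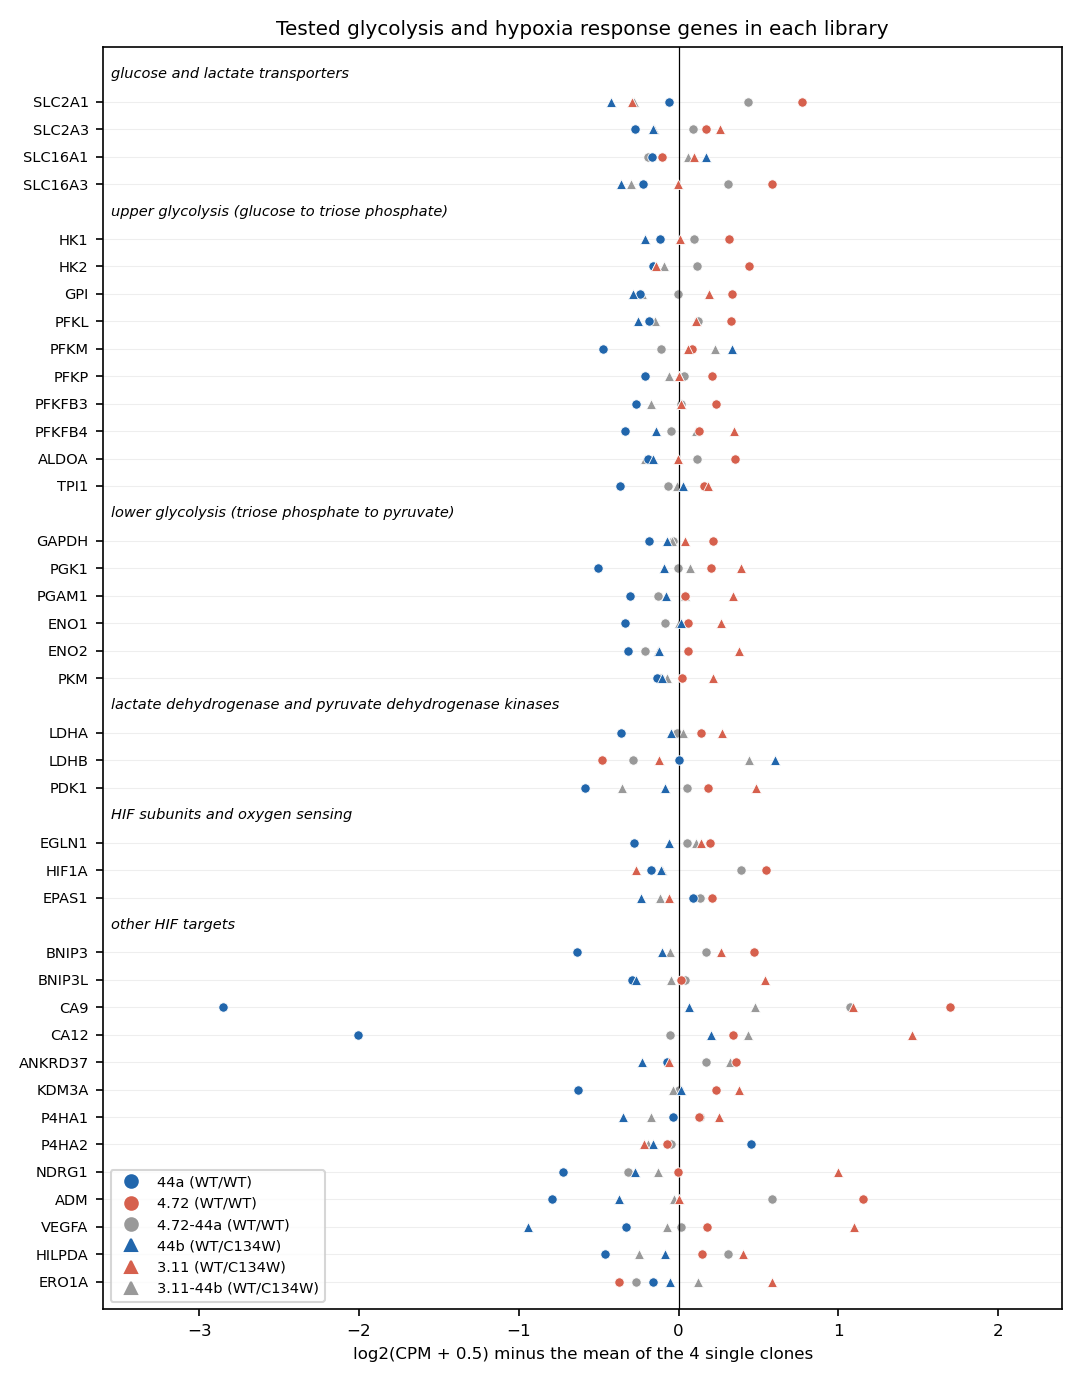
Level of each of the 39 tested members in all 6 libraries, as log2(CPM + 0.5) minus the mean of the 4 single clones, grouped by role. Blue (44a, 44b) lies to the left of red (4.72, 3.11) in 31 genes, grey joined libraries mostly lie between, and CA9 and CA12 in 44a stand apart on the far left.

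In the summed level of all 42 members, per transcript length, 44a held 15327 TPM, 4.72 held 19829, 44b held 18598 and 3.11 held 22235 TPM. The members took 1.41% of the counts in 44a, 1.77% in 4.72, 1.77% in 44b and 2.11% in 3.11. Summed TPM and share of counts were also higher in 44b than in 44a and higher in 3.11 than in 4.72. They thus moved with genotype as well as with the clone pairs. The sums mostly reflect GAPDH, PKM, LDHA and ENO1, and on this scale 44b lay below 4.72 only narrowly. Neither measure is TMM-scaled. The 50 most counted genes took 25.5% and 27.4% of counts in 44a and 4.72, against 21.5% and 20.5% in 3.11 and 44b. In TMM-scaled log2 CPM, centred on the single clones, the tested members averaged 0.248 in 4.72 and 0.249 in 3.11. That mean was -0.382 in 44a and -0.116 in 44b. Summed TPM of 4 epithelial markers, EPCAM, CDH1, KRT19 and CLDN4, was 0.85 in 44a and 0.92 in 44b against 3.69 in 4.72 and 4.59 in 3.11. Of these 4 markers only KRT19 followed the pairs, at 0 and 0.09 TPM against 1.63 and 3.13 TPM. CLDN4 lay the other way, at 0.67 and 0.65 TPM against 0.41 and 0.29 TPM, EPCAM was at 0 in 4.72 and CDH1 at 0 in 3.11. The part of these markers in the clone pair values was not tested. Library totals and the mitochondrial share of counts overlapped between the pairs.

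Among the transporters, SLC16A3 (ENSG00000141526, chromosome 17, 82228397 to 82261129, plus strand) showed the largest difference between clone pairs. It encodes MCT4, the lactate exporter of strongly glycolytic cells. The clones 44a and 44b held 166.4 and 151.3 CPM, 4.72 held 291.8 CPM and 3.11 held 193.4 CPM, with 240.7 and 158.0 CPM in the joined WT/WT and WT/C134W libraries. The groups did not overlap and 4.72 stood highest (1.52-fold lower in 44a and 44b, log2 fold change -0.61 ± 0.25, edgeR unadjusted p = 0.0565, adjusted p = 1), and leaving out 4.72 gave a log2 value of -0.28. The opposite-strand gene CSNK1D overlaps SLC16A3 and held 56.4% as many counts. SLC2A3, the high-affinity transporter GLUT3, was at 30.4 and 32.9 CPM in 44a and 44b and at 41.5 and 44.2 CPM in 4.72 and 3.11. The glucose transporter SLC2A1 overlapped between the pairs, since 44a exceeded 3.11, and its log2 fold change was -0.56 ± 0.37. SLC16A1 was nearly level between the pairs, at a log2 fold change of 0.02 ± 0.20.

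All 10 tested genes of the upper pathway, from glucose to triose phosphate, had a negative fold change between the clone pairs, beside 51.4% of all genes. Their log2 values ran from -0.52 to -0.08 with a median of -0.328. Of the 10, 9 lay lower without overlap in CPM, beside 15.4% of all genes, though HK2 and PFKP overlapped by TPM. GPI, which isomerises glucose 6-phosphate, was at 183.9 CPM (44a) and 178.4 CPM (44b) against 273.6 CPM (4.72) and 247.6 CPM (3.11) (log2 fold change -0.52 ± 0.19). Aldolase A (ALDOA) was at 797 and 817 CPM against 1166 and 910 CPM in the same order, and the liver-type phosphofructokinase PFKL at 105.1 and 100.3 CPM against 150.2 and 129.2 CPM. In these genes both 44-named clones were alike and 4.72 was highest. The hexokinase HK1 leaned the same way, at 315 and 295 CPM against 425 and 344 CPM. A further 3 separations were thin, because 44b and 3.11 were almost equal: HK2 was at 82.1 and 82.3 CPM, PFKP at 328.7 and 328.9 CPM and PFKFB3, which makes the activator of phosphofructokinase, at 54.4 and 54.6 CPM. PFKM, the muscle-type phosphofructokinase, was the exception that overlapped, with its highest level in 44b at 60.8 CPM and its lowest in 44a at 34.5 CPM. SENP1 overlaps PFKM on the opposite strand with 63.1% as many counts. The remaining PFKFB4 and TPI1 had log2 fold changes of -0.48 and -0.32. Reads that UCN2 shares with PFKFB4 on the same strand cannot be split with certainty, and UCN2 held counts equal to 30.2% of PFKFB4's.

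The 6 enzymes of the lower pathway, from triose phosphate to pyruvate, were all lower in 44a and 44b. In CPM none overlapped between the clone pairs, a layout that 15.4% of all genes had. By TPM only GAPDH and PGK1 stayed apart, and 44b lay above 4.72 in PGAM1, ENO1, ENO2 and PKM. ENO1, for example, was at 1737 TPM in 44b and 1577 TPM in 4.72. Phosphoglycerate kinase PGK1, the first ATP-yielding step, was at 269.8 CPM (44a) and 358.6 CPM (44b) against 440.0 CPM (4.72) and 502.3 CPM (3.11) (log2 fold change -0.58 ± 0.24, edgeR adjusted p = 1). The neuron-type enolase ENO2 was at 39.3 and 45.1 CPM against 51.1 and 63.9 CPM. PGAM1, ENO1, GAPDH and PKM had log2 fold changes of -0.38, -0.31, -0.26 and -0.24. In all 6 of these enzymes 44a was the lowest clone, and 3.11 was the highest in 5, with GAPDH highest in 4.72.

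At the fate of pyruvate, the 2 lactate dehydrogenase genes parted. LDHA, whose subunit favours lactate formation, was at 1424 CPM (44a) and 1771 CPM (44b) against 2020 CPM (4.72) and 2209 CPM (3.11) (log2 fold change -0.40 ± 0.29). LDHB (ENSG00000111716, chromosome 12, 21635342 to 21757857, minus strand), whose subunit favours the return of lactate to pyruvate, was at 189.3 CPM (44a) and 287.8 CPM (44b) against 135.3 CPM (4.72) and 173.4 CPM (3.11). In CPM, LDHB was thus higher in both 44-named clones. By TPM the pairs overlapped, with LDHB at 293.7 TPM in 44a and 304.8 TPM in 3.11. The joined libraries at 155.3 CPM (WT/WT) and 256.4 CPM (WT/C134W) lay between their clones. The fitted difference in LDHB was 1.55-fold (log2 fold change 0.63 ± 0.28, edgeR unadjusted p = 0.0654, adjusted p = 1), and its log2 value was 0.30 without 44b.

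PDK1 (ENSG00000152256, chromosome 2, 172555373 to 172608669, plus strand) phosphorylates and shuts off pyruvate dehydrogenase and is a classical HIF target. It was at 17.2 CPM (44a) and 24.5 CPM (44b) against 29.6 CPM (4.72) and 36.6 CPM (3.11). The groups did not overlap, and PDK1 was 1.59-fold lower in 44a and 44b (log2 fold change -0.67 ± 0.26, edgeR unadjusted p = 0.0446, adjusted p = 1). Leaving out 44a gave PDK1 a log2 value of -0.43. The joined WT/C134W library, at 20.2 CPM, lay below both of its clones. An opposite-strand gene, AC078883.1, held counts equal to 8.91% of those of PDK1.

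The HIF alpha subunits overlapped between the pairs, while their oxygen sensor did not. HIF1A was at 993 CPM (44a) and 1036 CPM (44b) against 1632 CPM (4.72) and 927 CPM (3.11), so 3.11, which held the highest level of 8 of the 13 other HIF targets, had the lowest HIF1A mRNA. EPAS1 also overlapped between the pairs, with a log2 fold change of -0.14 ± 0.23. EGLN1, the main prolyl hydroxylase that senses oxygen and itself a HIF target, was at 48.3 and 56.4 CPM in 44a and 44b and at 67.4 and 64.9 CPM in 4.72 and 3.11, without overlap (log2 fold change -0.33 ± 0.18). HIF activity is set largely at the level of the protein, which was not measured.

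The other HIF targets held the largest differences. Of the 13, 12 were lower in 44a and 44b, beside 51.4% of all genes, with a median log2 fold change of -0.583. Of these 12, 11 did not overlap in CPM, beside 15.4% of all genes. VEGFA (ENSG00000112715, chromosome 6, 43770184 to 43786487, plus strand), the vascular endothelial growth factor, was at 154.5 CPM (44a) and 100.7 CPM (44b) against 219.7 CPM (4.72) and 415.9 CPM (3.11). Clone 3.11 stood apart at the top, and 44b at the bottom. The pair difference was 2.49-fold (log2 fold change -1.31 ± 0.38, edgeR unadjusted p = 0.0153, adjusted p = 0.865), with a log2 value of -0.78 without 3.11. In the joined libraries VEGFA was at 196.6 CPM for WT/WT and 185.1 CPM for WT/C134W, close to each other.

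ADM (ENSG00000148926, chromosome 11, 10304680 to 10307397, plus strand) encodes adrenomedullin, a vasodilator peptide. Its level was 16.9 CPM (44a) and 22.8 CPM (44b) against 66.7 CPM (4.72) and 29.7 CPM (3.11), with 4.72 well above the rest. The difference was 2.42-fold (log2 fold change -1.27 ± 0.41, edgeR adjusted p = 0.969), and the log2 value was -0.58 without 4.72. NDRG1 (ENSG00000104419), a stress-response gene induced by low oxygen, was at 26.9 and 36.8 CPM in 44a and 44b against 44.6 CPM in 4.72 and 89.5 CPM in 3.11. In NDRG1 it was 3.11 that stood above the rest, and the difference was 2.1-fold (log2 fold change -1.07 ± 0.37, edgeR adjusted p = 1). Without 3.11 its log2 value was -0.48.

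BNIP3 (ENSG00000176171, chromosome 10, 131966455 to 131982013, minus strand) encodes a mitochondrial receptor for mitophagy. It was at 58.6 CPM (44a) and 85.2 CPM (44b) against 126.8 CPM (4.72) and 110.0 CPM (3.11), so both upper clones were close to each other and 44a was lowest. The difference was 1.64-fold (log2 fold change -0.72 ± 0.24, edgeR adjusted p = 0.982), at a log2 value of -0.47 without 44a. Its relative BNIP3L was at 68.3 and 69.4 CPM in 44a and 44b, nearly equal, against 84.6 and 122.0 CPM in 4.72 and 3.11. PNMA2 overlaps BNIP3L on the opposite strand with 25.8% as many counts.

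The membrane carbonic anhydrases, which handle the acid that glycolysis produces, spread most widely. CA9 (ENSG00000107159, chromosome 9, 35673856 to 35681159, plus strand) had 22 counts in 44a, or 0.496 CPM, and was at 7.02 CPM in 44b, 14.8 CPM in 3.11 and 22.9 CPM in 4.72. CA12 (ENSG00000074410, chromosome 15, 63321378 to 63382161, minus strand) was at 3.81 CPM in 44a, 19.4 CPM in 44b, 21.4 CPM in 4.72 and 47.1 CPM in 3.11. For both, 44a was far below the other clones, and for CA12 the 44b and 4.72 levels were nearly the same. The log2 fold changes between the pairs were -2.32 ± 1.10 for CA9 and -1.56 ± 0.80 for CA12, with an adjusted p of 1 for both in edgeR's test. Both values turned on single clones. CA9 was at -1.42 without 44a and -5.24 without 44b, and CA12 at -0.82 without 44a, -0.87 without 3.11 and -3.16 without 44b. ARHGEF39, on the opposite strand at CA9, held 92.1% as many counts, so reads cannot be assigned with certainty if strand was not used.

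**Figure D3:**
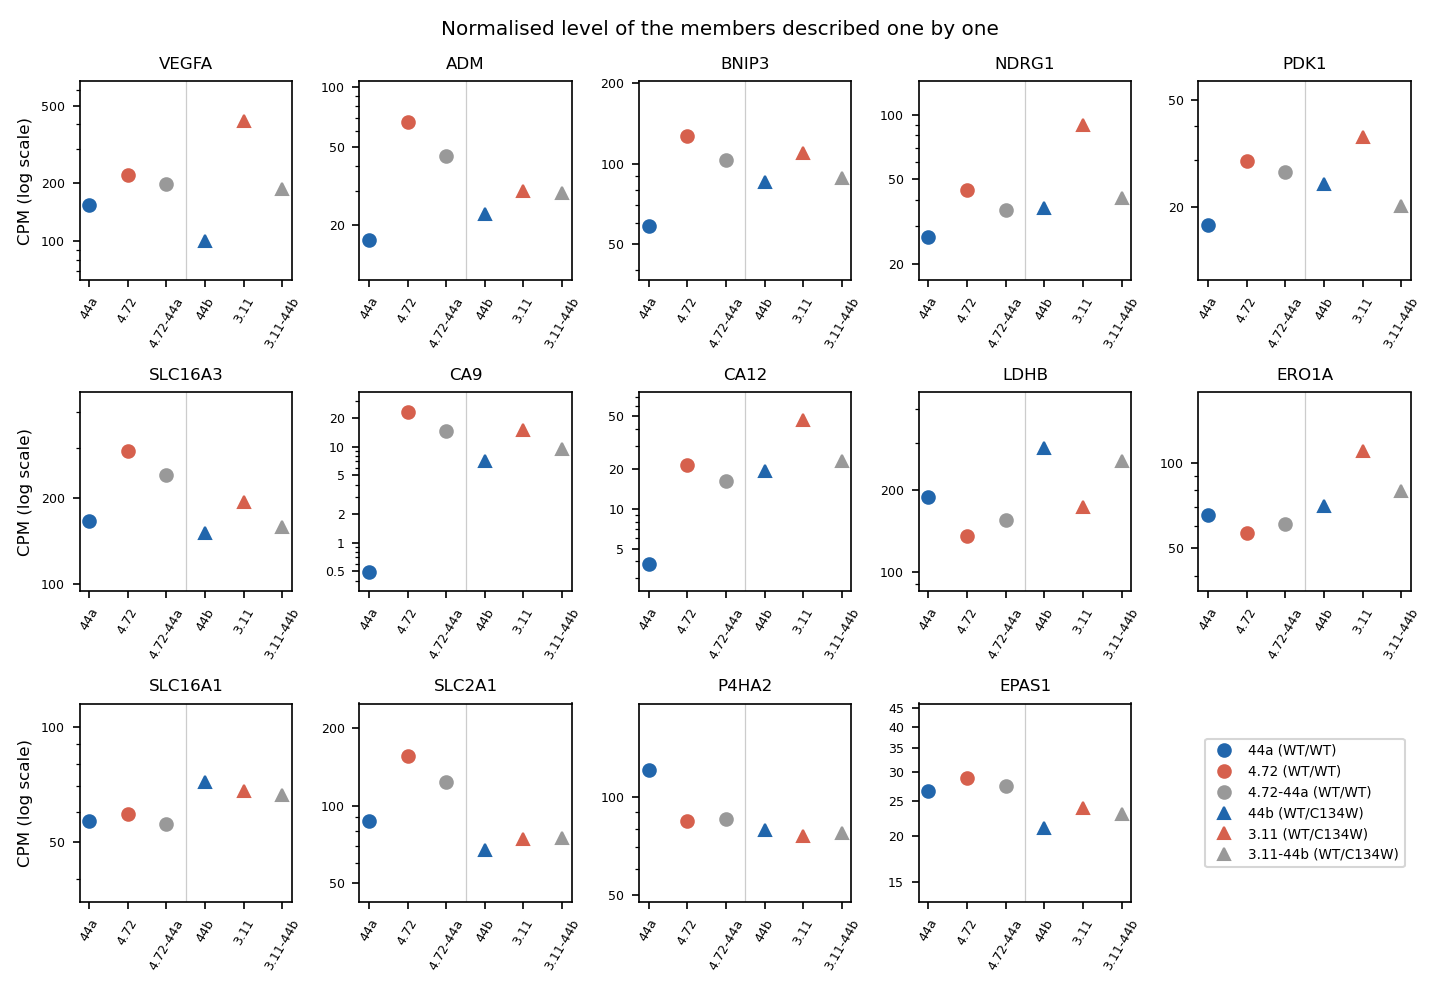
Normalised level (CPM, logarithmic axis) of 14 members in each library, 44a, 4.72 and their joined library on the left of each panel and 44b, 3.11 and theirs on the right. In VEGFA, ADM, BNIP3, NDRG1, PDK1, SLC16A3, CA9 and CA12 both red clones (4.72, 3.11) lie above both blue clones (44a, 44b), and in LDHB below them.

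The remaining targets differed less. KDM3A, a histone demethylase, was at 24.1 CPM in 44a and 38.0 CPM in 44b against 44.3 and 48.9 CPM in 4.72 and 3.11. HILPDA, a lipid droplet protein, was at 8.85 and 11.6 CPM against 13.7 and 16.5 CPM, and P4HA1, the main collagen prolyl hydroxylase subunit, at 168.6 and 135.7 CPM against 189.3 and 205.9 CPM. These 3 did not overlap between the pairs in CPM, though HILPDA overlapped by TPM. ANKRD37 stayed at 4.31 to 6.74 CPM, and UFSP2 on its opposite strand held more than its own counts, so its small difference is uncertain. ERO1A overlapped between the pairs, at a log2 fold change of -0.29 ± 0.33, and P4HA2 was the only target with a positive value, 0.33 ± 0.25.

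Within pairs of related genes, the mix of isoforms per transcript length was compared as shares of summed TPM, without a test, since 2 clones against 2 cannot give an exact permutation p below 0.333. SLC2A1 made up 82.9% of the SLC2A1 and SLC2A3 sum in 44a and 83.1% in 4.72, against 59.1% in 3.11 and 69.2% in 44b. The joined libraries were at 83.4% in WT/WT and 70.0% in WT/C134W, so the genotypes did not overlap in any library. The mean difference was -18.8 percentage points by TPM and -11.6 points by expected counts. SLC2A3 contributed through its mean transcript length as RSEM reported it, which was 3558 and 3223 bases in 44a and 4.72 against 2282 and 2764 bases in 3.11 and 44b. Named pseudogenes of SLC2A3 held 7.55% as many counts as the gene.

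SLC16A3 made up 86.2% of the summed TPM of the lactate carriers SLC16A1 and SLC16A3 in 44a and 91.3% in 4.72, against 84.3% in 3.11 and 78.6% in 44b. LDHA made up 87.4% of the LDHA and LDHB sum in 44a and 85.4% in 44b, against 93.5% in 4.72 and 91.9% in 3.11, so this share was lower in both 44-named clones. P4HA1 made up 51.6% and 55.3% of its pair in 44a and 44b against 61.4% and 65.5% in 4.72 and 3.11. Both these shares separated the clone pairs and not the genotypes. BNIP3 made up 51.5% and 58.4% of its sum with BNIP3L in 44a and 44b and 62.5% and 48.8% in 4.72 and 3.11, which overlapped. PDK1 made up 98.5%, 99.3% and 99.7% of the PDK1 and PDK3 sum in 44a, 4.72 and 3.11 but 87.8% in 44b. PDK3 counts were few, at 38 in 44b against 4 to 9 in the other single clones, with 59 in the joined WT/C134W library. RSEM's mean transcript length for PDK3 was 966 bases in 44b against 1809 to 1921 in the other single clones. By expected counts the PDK1 share was 96.7% in 44b, against 98.8% to 99.7% in the other single clones.

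**Figure D4:**
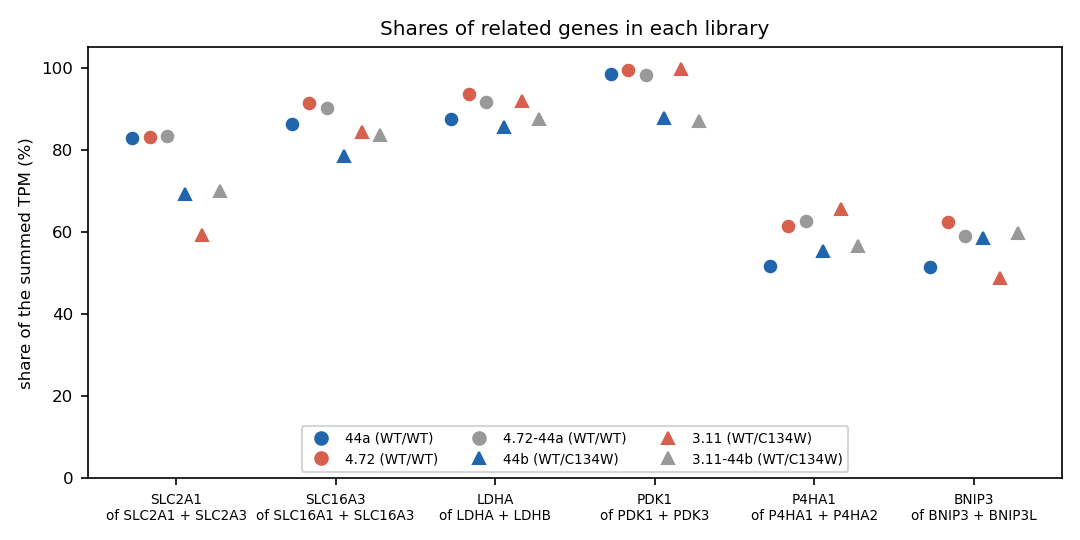
Share (percent of summed TPM) of the first-named gene in 6 pairs of related genes, in each library. SLC2A1 lies at 82.9% or more in the 3 WT/WT libraries and at 70.0% or less in the 3 WT/C134W libraries, while LDHA and P4HA1 separate blue (44a, 44b) from red (4.72, 3.11).

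The joined library of WT/WT lay between 44a and 4.72 in CPM for 35 of 39 members (89.7%), against 49.5% of all genes. Where the clones were at least 1.5-fold apart it did so for 12 of 13 members (92.3%), against 66.5% of all such genes. For WT/C134W it lay between 3.11 and 44b for 24 of 39 members (61.5%), against 49.2% of all genes, and for all 8 members at least 1.5-fold apart, against 64.7%. In ADM, BNIP3 and SLC16A3 the joined WT/WT library stood nearer to 4.72, at 44.6, 103.2 and 240.7 CPM. The joined WT/C134W library was nearer to 44b than to 3.11 in VEGFA and NDRG1. Whether a joined library is a mix of both clones is not stated in the labels.

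Further genes of the pathways, listed by name but with earlier results of these data known, gave a weaker lean. Of 45 other HIF targets, 41 were tested, and none passed the edgeR test in either comparison. Between the clone pairs 27 of the 41 were lower in 44a and 44b, beside 51.4% of all genes, with a median log2 fold change of -0.248. Of the 41, 15 lay lower without overlap, beside 15.4% of all genes. AK4, a mitochondrial adenylate kinase, was at 42.8 CPM (44a) and 57.9 CPM (44b) against 111.0 CPM (4.72) and 104.0 CPM (3.11) (log2 fold change -1.09 ± 0.21, edgeR unadjusted p = 0.00253, adjusted p = 0.477). ZNF395 and PAM leaned the same way, at log2 fold changes of -0.98 ± 0.26 and -0.71 ± 0.20. AK4 had the same order of clones as BNIP3, whereas 14 of the 41 were higher in 44a and 44b.

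Of 30 other glycolysis genes, 18 were tested and 13 were lower in 44a and 44b, beside 51.4% of all genes, with a median of -0.134. Among the 13 were SLC2A6 at -1.11 ± 0.35 and PGM1, which links glycogen to glycolysis, at -0.39 ± 0.22. SLC2A8 was higher at 0.96 ± 0.48. Genes of pyruvate entry into mitochondria lay near 0 (4 of 14 lower, median 0.081), as did the glycogen and pentose phosphate genes (9 of 15 lower, -0.102), the HIF machinery (6 of 14 lower, 0.014) and the metabolic regulators (7 of 13 lower, -0.028). No gene of these lists passed the edgeR test between the pairs.

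**Figure D5:**
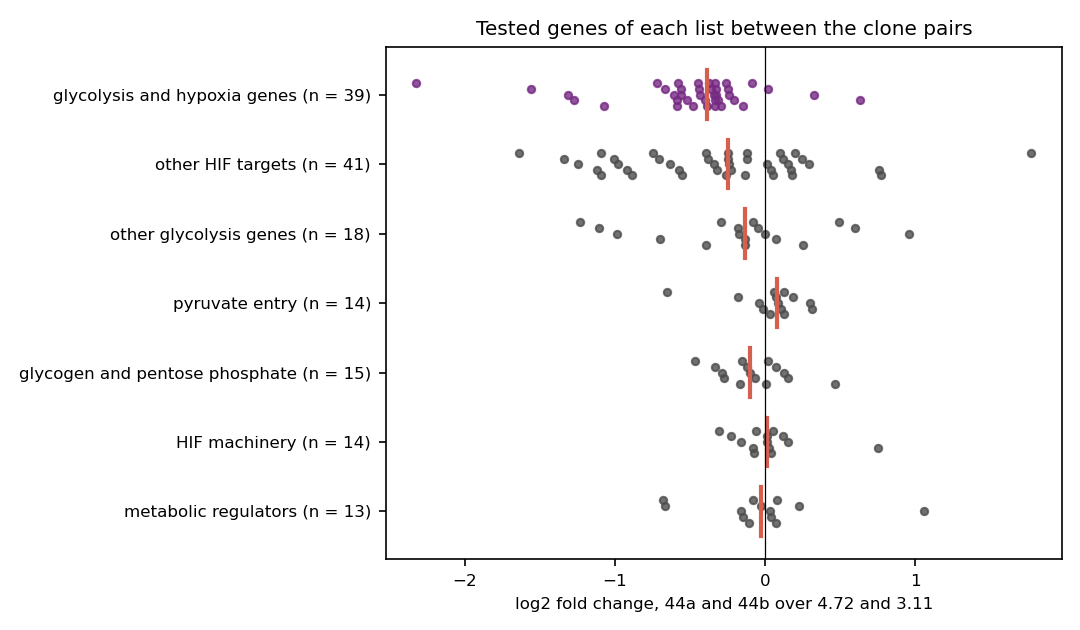
Log2 fold change of each tested gene (points) between the clone pairs, 44a and 44b over 4.72 and 3.11, for the members and 6 further lists, with the median of each list as a red bar. The median is -0.383 for the members, -0.248 for the other HIF targets and between -0.134 and 0.081 for the other 5 lists.

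Between the genotypes no gene of these lists passed the edgeR test either, and the medians of the 6 lists lay between -0.093 and 0.014. TXNIP, a glucose-responsive protein that restrains glucose uptake, was at 74.98 and 91.3 CPM in 44a and 4.72, and at 312.8 and 178.1 CPM in 3.11 and 44b, with both WT/C134W clones above both WT/WT clones (log2 fold change 1.57 ± 0.30, edgeR unadjusted p = 0.00232, smallest adjusted p of the list 0.513). HMOX1, which degrades heme, was at 67.5 and 62.2 CPM in 44a and 4.72 against 34.1 and 40.5 CPM in 3.11 and 44b (log2 fold change -0.79 ± 0.17). CITED2, which competes with HIF for its coactivators, was at 293.4 and 416.3 CPM against 131.4 and 221.6 CPM, a log2 fold change of -1.003 ± 0.305. In TXNIP, HMOX1 and CITED2 the genotypes did not overlap, but none of the 3 passed after adjustment.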

How the data were processed

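RNA-seq gene tables of 6 KGN libraries were used, 3 per FOXL2 genotype, grouped by the genotype label. Per the labels' protocols, a stranded mRNA preparation was used. Per the submitters' processing notes, the tools were RSEM 1.3.1, STAR 2.7.6a, DESeq2 1.26.0, Picard 2.8.1 and R 3.6.3, with no roles given, and the build is the mouse GRCm38 although the gene IDs are human. The human build is not given in the sources used here, nor are the release of the annotation and the strand option. Per the file headers, the authors deposited RSEM's expected count per gene, an estimate that shares out reads fitting several genes, beside TPM and FPKM, which are scaled by effective length. FPKM was deposited by the authors and not used. Symbols and GRCh38 coordinates came from GENCODE release 29, which held 58216 of the 58336 gene IDs.

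Expected counts were rounded. For the 4 single-clone libraries, edgeR 4.0.16 under R 4.3.3 applied filterByExpr, TMM scaling, a robust glmQLFit and glmQLFTest. P-values were adjusted by Benjamini-Hochberg over all 16416 genes and a threshold of 0.05. Each SE was obtained from edgeR's F statistic, as the absolute log2 fold change over the root of F. CPM values are TMM-scaled over the 6 libraries. Differences between single clones used log2(CPM + 0.5). Joined libraries were left out of the fits. The steps were tested on simulated data. Each group holds 2 clones, which limits precision, and depth limits members with few counts such as PDK3 and CA9 in 44a.

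The members and lists were chosen with earlier results of these data known. Values are given in the 4 single-clone libraries, and for all 6 libraries in the figures, for a set of members. These are members without overlap between genotypes and with the same sign between joined libraries, and members without overlap between clone pairs at a fold of at least 1.5. Shares are given for pairs of related genes whose share differed by at least 10 percentage points between any 2 single clones. LDHA and LDHB fell just short of that limit and, like the other members given clone by clone, were chosen after their values were seen. Up to 3 genes by smallest unadjusted p were eligible from each further list and comparison. Alternatives were DESeq2 1.42.0, limma 3.58.1 voom, library totals, median-ratio size factors, a 10 CPM filter, no low-count filter, limma on log2(TPM + 1) and log2(TPM + 0.1) for genes of at least 1 TPM in 2 libraries, a block, all 6 libraries, and each library left out.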

Additional observations from a re-analysis of the deposited data

Results flagged for a closer look

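For 2 members the difference between the genotypes pointed in opposite directions in the clones that share a name stem and in the other clones, each by at least 1.5-fold, and the contrast between those differences was not tested. CA9 was higher in 44b than in 44a by 2.917 on the log2 CPM scale, but the difference of 3.11 minus 4.72 was -0.6104. VEGFA had the reverse layout, with a difference of -0.6147 for 44b minus 44a and of 0.9193 for 3.11 minus 4.72. Each value compares 1 library with 1 other.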

How the results depend on the processing

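Between genotypes, the count of genes called was 0 with edgeR and 283 with DESeq2, 664 without the low-count filter, 511 with all 6 libraries, 5 with the clone pairs as a block and 1 with limma on log2(TPM + 0.1). It stayed at 0 when each clone was left out. No member was called except without the filter, where 3 were (SLC2A1, NDRG1 and CA12). Members lower in WT/C134W numbered 16, and 8 with library totals, 8 with log2(TPM + 1), 8 with log2(TPM + 0.1), and 5 (without 4.72) to 25 (without 44a). Library totals moved the median of all genes to 0.23, beside 0.337 for the members. The all-gene median was also 0.145 with log2(TPM + 1), beside 0.281 for the members, and 0.159 with log2(TPM + 0.1), beside 0.295. The median of the members ran from -0.055 to 0.443 when a clone was left out. The cause of these differences was not tested, apart from the smaller or larger sets of genes and libraries.

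Between clone pairs, the count of genes called was 1, and 207 with DESeq2, 448 without the filter, 33 with library totals, 38 with genotype as a block, 2 with the 10 CPM filter, and 0 with voom, median-ratio size factors, log2(TPM + 1) and log2(TPM + 0.1). It ran from 0 to 4 when a clone was left out. Members were called only without the filter, where 5 were (ADM, CA12, CA9, NDRG1 and VEGFA). There edgeR estimated infinite prior degrees of freedom, beside 3.7 with the filter. Members lower in 44a and 44b numbered 35 or 36 in every alternative run. That number counts the sign of the fold change and not the layout without overlap, which fewer members had by TPM. The SLC2A1 share of its pair differed between genotypes by -18.8 points, and by -11.6 points from expected counts. With TPM in place of CPM, chosen after seeing the data, the joined library lay between its clones for 26 (WT/WT) and 21 (WT/C134W) members. These are 66.7% against 46.9% of all genes for WT/WT, and 53.8% against 44.4% for WT/C134W. For members at least 1.5-fold apart by TPM it was 12 of 12 for WT/WT, against 63.9% of all such genes. For WT/C134W it was 8 of 11, or 72.7% against 61.8%. The block is a pairing by the shared name stem, which the labels do not state as a pairing.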
